A study of Rattus norvegicus with 4 samples.

Results

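Iron uptake, export and its control by the iron regulatory proteins (IRPs) were described here through 10 rat genes, Tfrc, Slc11a1, Slc11a2, Slc40a1, Aco1, Ireb2, Fbxl5, Steap3, Pcbp1 and Pcbp2. The genes were chosen by name, and their probes were found by matching the accession on the array to RefSeq. Probes were found for 8 of the 10 genes, as 11 of the 45598 gene probes on the array. No probe was matched to Fbxl5 or Pcbp1, so they have no value here. The RNA came from NR8383 cells, a rat alveolar macrophage line started from the lung lavage of a normal rat and labelled with 20 passages. Part of the culture adheres and part floats. All 4 arrays held cells exposed for 4 h to zinc iron oxide (ZnFe2O4, NRCWE021), a zinc ferrite particle, at 17 µg/mL. The series describes unexposed control cells as well, but control arrays were not analysed here, so no value below is a response to the particle. The 4 arrays are described as biological replicates of 1 cell line, their small number limits the precision of every mean, and 1 slide and 1 scan session held them all.

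Cells take up iron bound to transferrin through the transferrin receptor, encoded by Tfrc. In the endosome the ferrireductase encoded by Steap3 reduces the iron, and the divalent metal transporter DMT1, the product of Slc11a2, moves it into the cytosol. Macrophages also carry NRAMP1, the product of Slc11a1, in the membrane of phagosomes and lysosomes. Ferroportin, the product of Slc40a1, is the exporter through which macrophages return iron from aged red cells to the plasma. When iron is scarce, IRP1 (Aco1) and IRP2 (Ireb2) bind hairpins in target mRNAs, which stabilizes Tfrc mRNA and blocks translation of ferritin and ferroportin mRNA. IRP1 holds an iron-sulphur cluster and works as a cytosolic aconitase when iron is plentiful, while FBXL5 marks IRP2 for degradation. The poly(rC)-binding proteins PCBP1 and PCBP2 act as cytosolic iron chaperones. An array reads mRNA and not IRP binding or protein.

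The particle carries zinc as well as iron, and the transcription factor MTF1 binds metal response elements when zinc rises. The 250 bases before the annotated start were therefore searched on both strands for TGCACNC and TGCGCNC, the forms of that element. RefSeq windows of build GRCr8 were found for 9 of the 10 genes, with Slc11a1 as the gene not matched. These genes had 10 windows, since Slc11a2 had 2. A match was found in 4 of the 10 windows, those of Tfrc, Steap3, Fbxl5 and Pcbp1, and in 20.6% of all 33469 such windows. Windows are printed for the receptor Tfrc and for Steap3, which held matches and were read on the arrays, and for the exporter Slc40a1, which held none. Capitals mark the matches, and each sequence runs 5′ to 3′ towards the start. All lie on the minus strand, at chr11:81690319-81690568 for Tfrc, chr13:33944357-33944606 for Steap3 and chr9:55543461-55543710 for Slc40a1.
Tfrc: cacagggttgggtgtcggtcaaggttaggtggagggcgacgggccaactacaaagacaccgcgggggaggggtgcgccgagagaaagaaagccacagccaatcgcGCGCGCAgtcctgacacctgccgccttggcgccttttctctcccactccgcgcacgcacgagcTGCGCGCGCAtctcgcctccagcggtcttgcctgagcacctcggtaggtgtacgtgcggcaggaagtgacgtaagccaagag
Steap3: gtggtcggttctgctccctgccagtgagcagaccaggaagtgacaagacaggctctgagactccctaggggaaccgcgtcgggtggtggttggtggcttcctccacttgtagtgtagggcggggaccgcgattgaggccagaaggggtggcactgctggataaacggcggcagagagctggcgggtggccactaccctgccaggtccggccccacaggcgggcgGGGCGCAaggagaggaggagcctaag
Slc40a1: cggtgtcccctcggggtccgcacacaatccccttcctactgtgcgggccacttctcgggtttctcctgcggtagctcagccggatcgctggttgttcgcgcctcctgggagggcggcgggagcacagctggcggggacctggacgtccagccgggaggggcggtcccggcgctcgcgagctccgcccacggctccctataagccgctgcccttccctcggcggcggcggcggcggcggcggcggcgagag
The 3 matches of Tfrc were all of the form TGCGCNC and began 145, 82 and 79 bases before the start, the last 2 overlapping each other on opposite strands. A count of 3 or more was found in 1.17% of all windows. The single match of Steap3 began 26 bases before the start. Such a match is a run of letters and not a measured binding site.

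Replicates 2 and 3 stood apart from replicates 1 and 4 in readings that do not come from the cells. Spike-in RNA, added to each sample in known steps, was read by 10 probes. The dimmest of them gave a processed signal of 3.72 on replicate 1 and 3.92 on replicate 4, but 526 on replicate 2 and 112 on replicate 3. Counted down from the brightest, the order of the spike-ins was the same on every array for the first 4 and then broke. The scanner software placed 2, 8, 5 and 2 of 11 quality metrics out of range on replicates 1 to 4. Processed signal is a background-subtracted intensity with no scaling between arrays, and values are given below in the order of replicates 1 to 4. The scanner software marks each spot that reads clearly over its background, and such spots are called well above background here. Because dim spike-in spots carried that flag on replicates 2 and 3, detection is given for the full set of arrays and for replicates 1 and 4 alone.

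The receptor, the transporters DMT1 and NRAMP1, and IRP1 were read well above background on every array. The exporter and IRP2 were not well above background on the arrays with a low floor. Tfrc, Slc11a1, Slc11a2, Aco1 and Pcbp2 were well above background on all 4 arrays, which is 5 of 8 genes beside 42.4% of all 16526 named genes. On replicates 1 and 4 taken alone, Steap3 joined them to make 6 of 8, beside 45.9% of all genes. A limit from the spike-ins asked for a signal above the dimmest of them by 3 SD of its spots, which is stricter than the flag over all arrays but looser on replicates 1 and 4. Tfrc, Slc11a1, Aco1 and Pcbp2 passed it on every array, which is 4 of 8 genes beside 18.9% of all genes, and 6 of 8 passed it on replicates 1 and 4, beside 52.3%. The scanner's looser flag asks only for a signal significantly above the local background. It was set for 7 of 8 genes on all arrays, beside 59.8% of all genes, and for the same number on replicates 1 and 4, beside 61%. Singly, replicates 1 to 4 detected 6, 7, 6 and 6 of the 8 genes, beside 52.2%, 91.5%, 75.3% and 46.2% of all genes. The remaining 3 genes fell into 3 different patterns. Slc40a1 was flagged on replicates 2 and 3 but not on 1 or 4, as were 27.7% of all genes. Ireb2 was flagged on replicate 2 and on no other array, as were 12.8% of all genes. Steap3 had the opposite pattern to Slc40a1, flagged on replicates 1 and 4 but not on 2 or 3, which held for 119 genes or 0.72%.

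**Figure D1:**
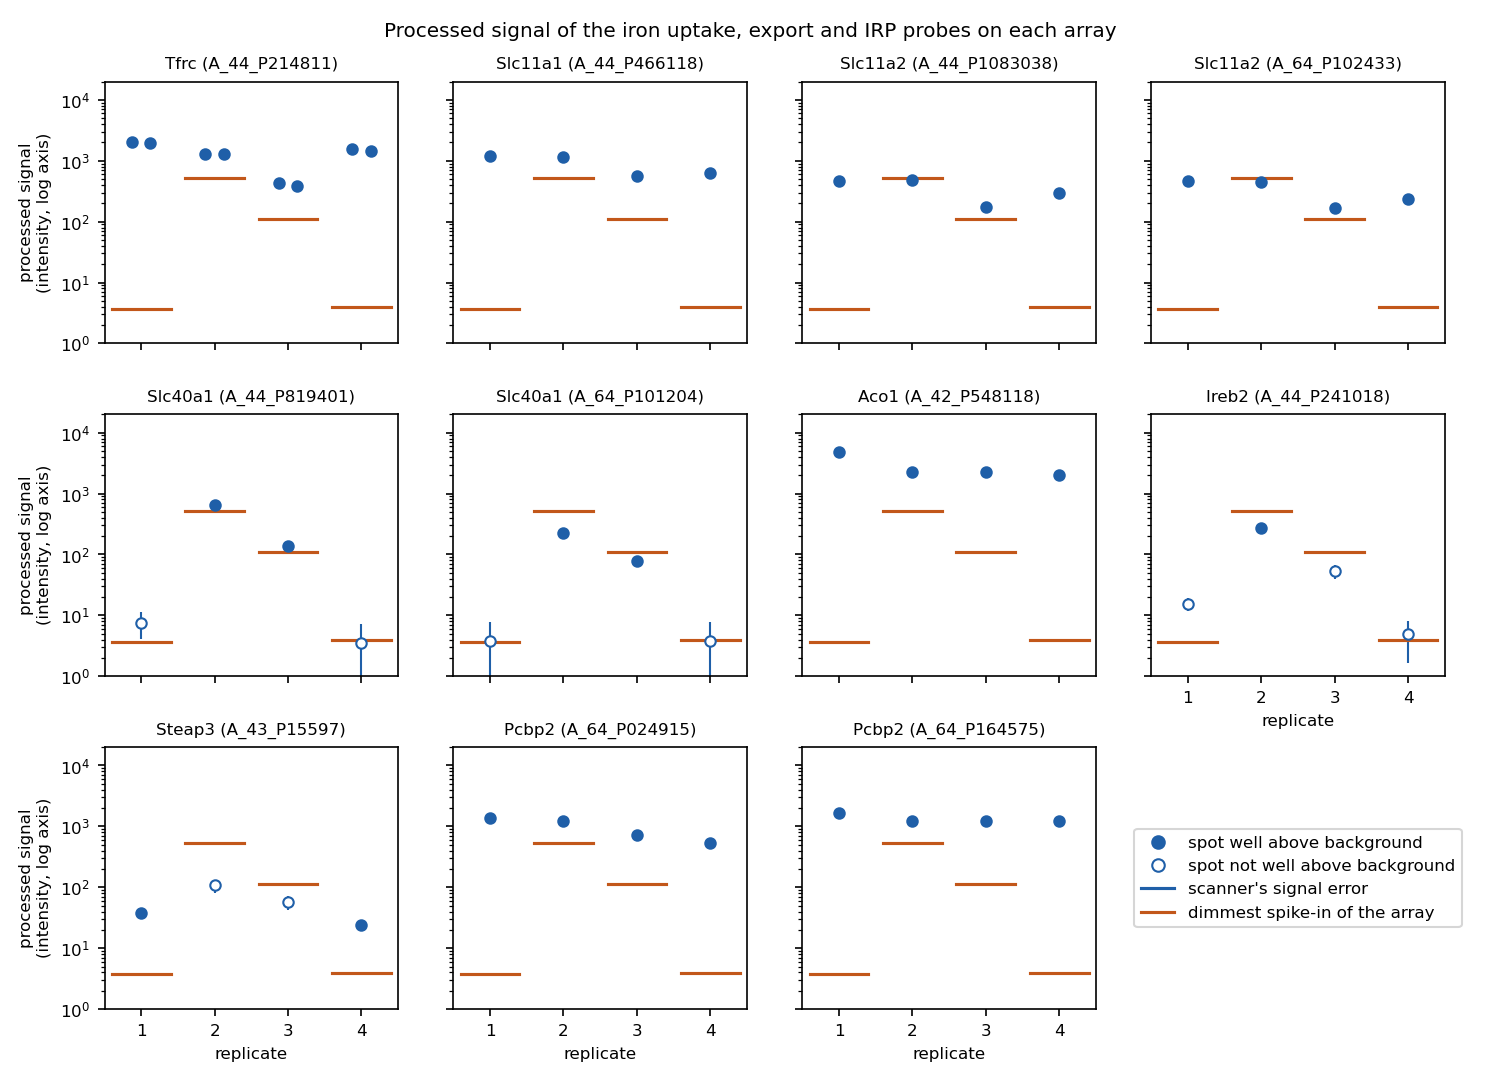
Processed signal (intensity, log axis) of the 11 probes on replicates 1 to 4, with filled points for spots well above background, open points for the others, bars for the scanner's signal error and orange lines for the dimmest spike-in of each array. On replicates 1 and 4 the detected probes lie far above the orange line, whereas on replicates 2 and 3 both Slc40a1 probes, Ireb2, Steap3 and the Slc11a2 probes lie near or under it.

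Tfrc was read by 1 probe (A_44_P214811, NM_022712) printed at 2 spots. Its mean signal was 2001, 1280, 407 and 1508 on replicates 1 to 4. All spots were well above background, and replicate 3 was the lowest array. The 2 spots differed by 5.40%, 1.19%, 14.2% and 6.15% of their mean on the same arrays, less than the arrays differed from each other. To compare arrays, each was shifted so that its 75th percentile over the 12899 probes well above background on every array was equal. On that scale, in log2 intensity, Tfrc read 10.46, 9.81, 9.20 and 11.04, with a mean of 10.13 ± 0.80 (SD, n = 4). Replicates 2 and 3, whose dim spike-ins were raised, thus both read lower than replicates 1 and 4, and the part of that array difference in the Tfrc values was not tested. Among the 1290 probes whose signal on replicate 1 was likewise between 1192 and 2393, the median SD was 0.28, and 1.55% had a larger SD than Tfrc. The difference of replicate 1 minus replicate 3 was 1.25 for Tfrc, and the middle of those probes, from the 5th to the 95th percentile, ran from -0.54 to 0.76.

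Steap3, the endosomal ferrireductase, was read by 1 probe (A_43_P15597, NM_133314) at 1 spot. Its signal was 37.2 ± 5.23 on replicate 1 and 23.9 ± 4.18 on replicate 4, where the error is the scanner's own estimate for the spot, and both were well above background. On replicates 2 and 3 the signal was 108 ± 26.2 and 57.3 ± 14.8, and neither was flagged. The unflagged signals were thus the higher in intensity, and they lay below the dimmest spike-in of their arrays, at 526 and 112. On replicates 1 and 4 the Steap3 signal lay above that spike-in.

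Slc11a2, which encodes DMT1, was read by 2 probes of NM_013173. The probe A_44_P1083038 gave 463, 488, 175 and 294, and A_64_P102433 gave 463, 442, 167 and 232. The probes followed each other closely, since the log2 ratio of the first to the second was at most 0.34 on the 4 arrays. Both were well above background everywhere, yet on replicate 2 both signals lay under the dimmest spike-in. Scaled, the means were 8.36 ± 0.29 and 8.22 ± 0.20 (SD, n = 4), with the lowest value of each on replicate 3.

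Slc11a1, which encodes the phagosomal NRAMP1, was read by 1 probe (A_44_P466118, NM_001031658). Its signal was 1174, 1136, 571 and 620, well above background on every array. Before scaling, replicates 1 and 2 were thus higher than replicates 3 and 4, and after it the 4 values ran from 9.64 to 9.76. The mean was 9.70 ± 0.05 (SD, n = 4), and of 1290 probes of like signal 0.698% had a smaller SD. The SD of Slc11a1 was between 0.14 and 1.69 under the other ways of scaling, apart from keeping outlier spots, which left it at 0.05.

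Slc40a1, the exporter ferroportin, was read by 2 probes of NM_133315. The probe A_44_P819401 gave 7.61, 641, 138 and 3.55. The probe A_64_P101204 gave 3.85, 228, 79.0 and 3.81. The median signal over all gene spots was 13.5, 542, 133 and 7.37 on replicates 1 to 4. How many probes split these pairs of arrays without overlap was not counted. Both Slc40a1 probes did so, with replicates 2 and 3 high and replicates 1 and 4 low. On replicates 1 and 4 the signals came within the scanner's error of 0 or little above it, at 2.13 times the error for the first probe on replicate 1 and about equal to it for the other 3 readings. There they lay below the lowest signal of any probe well above background, 15.0 on replicate 1 and 13.8 on replicate 4. That signal gives at most an approximate upper limit, since Ireb2 read 15.4 on replicate 1 without the flag. The first probe lay slightly above the dimmest spike-in on replicates 2 and 3, and the second lay below it on both.

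The same division was seen in genes of cell types that NR8383 should not hold. Markers of epithelium, T cells and fibroblasts, 13 genes in all, had signals of 3.14 to 44.3 on replicate 1 and 2.84 to 9.26 on replicate 4. On replicate 2 they ranged from 150 to 1474 and on replicate 3 from 12.2 to 310. Their summed signal was 116, 10155, 1738 and 60.3, and the number well above background was 1, 13, 11 and 0. Both Slc40a1 probes therefore stood inside the range of these markers on each of the 4 arrays. The part of the raised floor in the Slc40a1 signal was not tested. The looser flag was set for the first probe on replicate 1 and for neither probe on replicate 4. Neither Slc40a1 probe was well above background on an array with a low floor, which holds for the limit of detection of these probes and does not show that the mRNA is absent.

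The IRP genes differed in how clearly they were read. Aco1, which encodes IRP1, was read by 1 probe (A_42_P548118, NM_017321) at 4793, 2238, 2238 and 2008. It was well above background on all 4 arrays, with replicate 1 the highest. Scaled, Aco1 read 11.72, 10.62, 11.66 and 11.46, so that replicate 2 was the low array, and the mean was 11.36 ± 0.51 (SD, n = 4). Probes as bright tended to be lower on replicate 2 as well. Among the 1290 probes between 2393 and 6890 on replicate 1, the median of replicate 1 minus replicate 2 was 0.55. The part of this tendency in the low Aco1 value was not tested. Of those probes, 7.67% had a larger SD than Aco1. Aco1 was the only 1 of the 11 probes whose signal lay within the 4 ordered spike-ins on every array. When each array was read off its own spike-in curve, the SD of Aco1 was 0.53.

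Ireb2, which encodes IRP2, was read by 1 probe (A_44_P241018, NM_022863) at 15.4, 267, 52.9 and 4.93. Replicate 2 was the highest and the only array with the flag, and replicate 4 was the lowest. The scanner's error was 3.57, 34.9, 13.3 and 3.29 on the 4 arrays. On replicates 2 and 3 it lay below the dimmest spike-in. On replicate 1 it lay close to the lowest flagged signal of that array, 15.0. The looser flag was set for Ireb2 on all 4 arrays.

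Pcbp2, an iron chaperone, was read by 2 probes of NM_001013223. The probe A_64_P024915 gave 1363, 1227, 721 and 532, and A_64_P164575 gave 1652, 1243, 1228 and 1217. Every reading was well above background, but the probes moved differently between arrays. The log2 ratio of the first to the second was -0.28, -0.02, -0.77 and -1.19, a range of 1.17 against 0.34 for the pair of Slc11a2 probes. After scaling, replicate 1 minus replicate 4 was 0.36 for the first probe and -0.55 for the second, so the direction between those arrays depended on the probe. The means were 9.81 ± 0.21 and 10.37 ± 0.49 (SD, n = 4), and no single level is given for the gene.

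**Figure D2:**
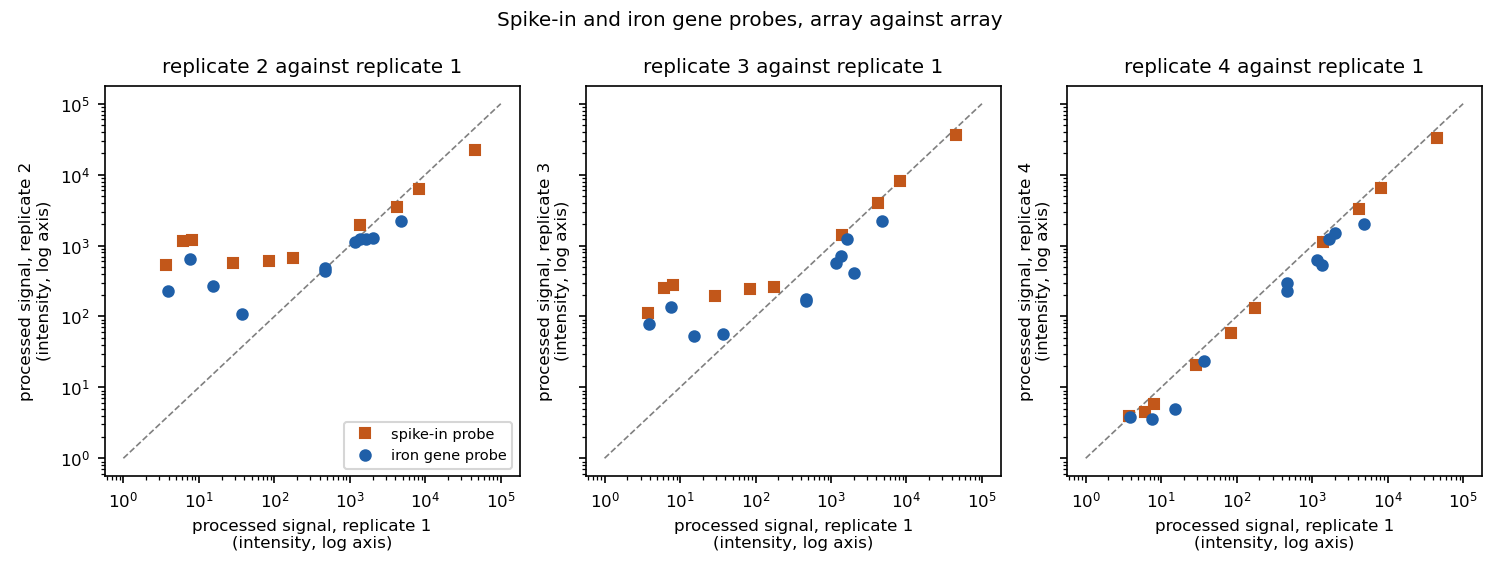
Processed signal on replicates 2, 3 and 4 against replicate 1 (both axes intensity on a log scale) for the 10 spike-in probes (orange squares) and the 11 iron gene probes (blue circles), with a dashed line of equality. The dim spike-ins level off on replicates 2 and 3 and do not on replicate 4, and the dim iron gene probes are raised on the same arrays.

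Replicates 1 and 4, the arrays with a low floor, differed by a median absolute 0.22 over the 12899 probes. For the 7 probes of Tfrc, Slc11a1, Slc11a2, Aco1 and Pcbp2, this difference ran from -0.59 for Tfrc to 0.36 for a Pcbp2 probe. Over all 4 arrays the median SD of those 7 probes was 0.29, and that of the 12899 probes was 0.47, many of them dimmer. Probes of like signal on replicate 1 had median SDs of 0.28 to 0.35, so the median of the 7 was close to that of probes as bright. Tfrc had the largest SD of the 7 under 6 of the 7 ways of scaling tried, the exception being quantile normalization, under which the Slc11a2 probes varied more. Its SD ran from 0.71 to 2.35 over those settings. Replicate 3 was the lowest array for Tfrc under 5 of them, and replicate 2 was the lowest under quantile normalization and under scaling on all probes. Fewer cells with a transcript and less of it per cell cannot be told apart in RNA of whole cultures.

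**Figure D3:**
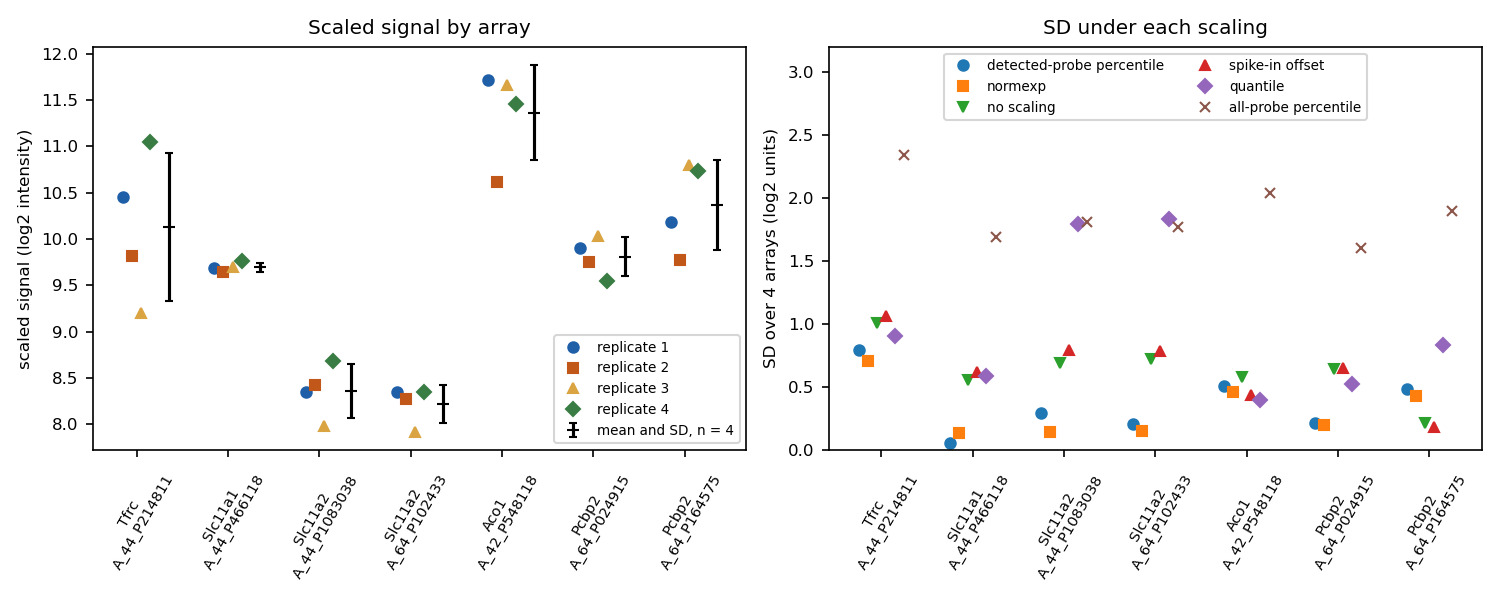
Left, scaled signal (log2 intensity) of the 7 probes well above background on every array, as points for each replicate with the mean and SD (n = 4). Right, the SD over the 4 arrays (log2 units) of the same probes under 6 ways of scaling. Tfrc is widely spaced and Slc11a1 tightly grouped on the left, and the SDs on the right depend on the scaling.

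The other genes of iron handling were followed with a list of 36 that did not include the genes above, of which 33 were measured. Of these, 19 were well above background on every array, and 20 when replicates 1 and 4 alone were asked, beside 42.4% and 45.9% of all named genes. By role, the count on replicates 1 and 4 was 5 of 5 for ferritin, its release and haem breakdown, 5 of 6 for mitochondrial and lysosomal iron, 4 of 5 for regulators of the IRP pathway, 3 of 8 for paralogues and 3 of 9 for membrane and systemic iron, the last 2 below the share of all genes. Fth1 and Ftl1, the ferritin chains, Ncoa4, the receptor that sends ferritin to lysosomes, and Hmox1, which frees iron from haem, were all read on every array. Fth1 gave 90790, 83780, 76651 and 28038, with replicate 4 the lowest, and Ftl1 gave 104087, 118028, 84032 and 73913. Hmox1 gave 39957, 24948, 20638 and 26400, and Ncoa4 gave 3130, 1848, 910 and 1929.

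Partners of the missing Fbxl5 could be read. Skp1, Cul1 and Rbx1, the subunits that join FBXL5 in its ubiquitin ligase, were well above background on all 4 arrays. Skp1 gave 5205, 3322, 1838 and 3011. Cul1 gave 709, 1564, 412 and 455, with replicate 2 the highest, and Rbx1 gave 7215, 4911, 3393 and 3420. Zc3h12a, an RNase that degrades Tfrc mRNA, was well above background everywhere too. Among the paralogues, Tfr2, the second transferrin receptor, gave 122, 1423, 324 and 69.2 and was well above background on all 4 arrays, with its highest reading on replicate 2. Pcbp4 was also read on all arrays, and the transporter gene Slc39a8 on all but replicate 3.

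The 13 measured genes of the list that were not well above background on both replicate 1 and replicate 4 included reductases, ferroxidases and the hormone hepcidin. The ferrireductases Steap1, Steap2 and Steap4, the chaperone relative Pcbp3, the mRNA decay factor Zfp36, transferrin (Tf), Hjv and the duodenal reductase Cybrd1 were on neither of those arrays. Slc39a14, hepcidin (Hamp), the ferroxidases Cp and Heph and the mitochondrial importer Slc25a37 were on replicate 1 and not on replicate 4. Of the 13, 9 were well above background on both replicates 2 and 3. Of all named genes, 91.5% were flagged on replicate 2 and 75.3% on replicate 3, each array taken singly. The matching share among all genes likewise dim on replicates 1 and 4 was not computed, so this count is not read as a trait of iron genes. The median signal of all 13 was 8.58, 369, 82.1 and 4.06. Steap4 gave 3.52, 369, 53.1 and 3.63, and Slc39a14, a metal importer, gave 19.2, 404, 62.6 and 4.06.

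**Figure D4:**
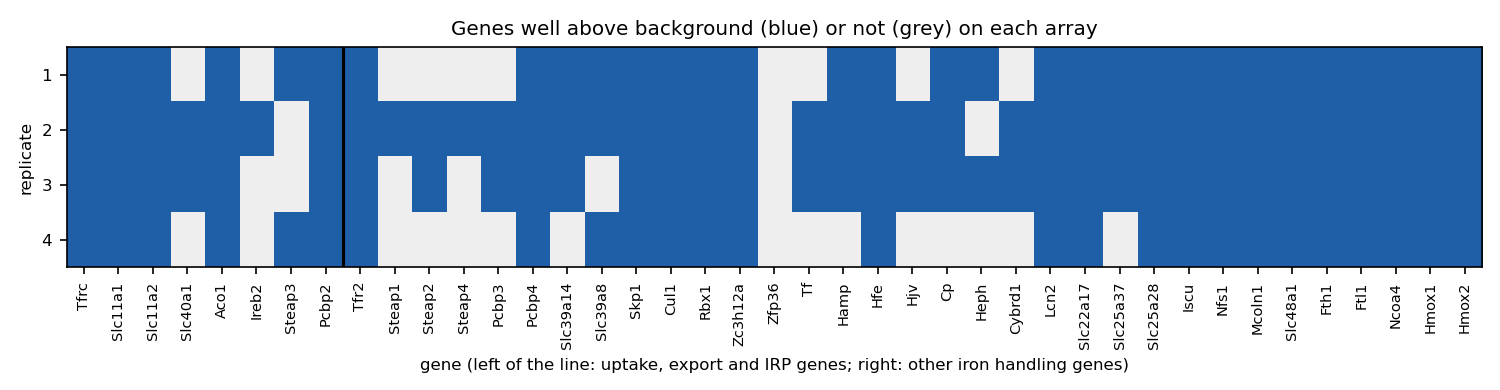
Detection on replicates 1 to 4 (rows) of the 8 measured uptake, export and IRP genes (left of the black line) and 33 other iron handling genes (right), with blue for a gene well above background and grey otherwise. Slc40a1 and Ireb2 are grey on replicates 1 and 4, Steap3 is grey on replicates 2 and 3, and the ferritin genes are blue throughout.

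The label of the cells was checked with 10 measured macrophage markers. Of these, 8 were well above background on all 4 arrays, beside 42.4% of all named genes, among them Cd68, Lyz2, Spi1 and Ptprc. Msr1, also among the 8, gave 48.5, 672, 258 and 30.5, raised on replicates 2 and 3. Adgre1 was well above background on no array, and Marco on neither replicate 1 nor 4. Red cell precursors use much transferrin receptor, so 6 erythroid markers were read as well. Alas2, Hbb and Slc4a1 stayed unflagged on both replicate 1 and 4, while Hba-a1, Klf1 and Epor were well above background on every array. Klf1 gave 25.5, 2027, 493 and 24.1, little above the lowest flagged signals of 15.0 and 13.8 on replicates 1 and 4. Epor gave 144, 847, 148 and 55.7, and Hba-a1 gave 211, 284, 120 and 103, both highest on replicate 2. The part of the raised floor in these values was not tested. No marker of epithelium, T cells or fibroblasts was well above background on both replicates 1 and 4.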

How the data were processed

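Total RNA of 4 exposed cultures was read on 1-colour (Cy3) rat expression arrays. The authors' scanner intensity for each spot was made in Feature Extraction 11.0.1.1 by Agilent, per the file headers, with background removed inside each array and no scaling between arrays recorded. The deposited value table equals the median spot intensity on all 62976 spots and was not used further. Of this work's own steps, control spots and outlier-marked spots were left out (0 of the spots of the 11 probes), log2 intensity of repeated spots was averaged, 213 probes without a spot on some array were dropped, and arrays were shifted to a common 75th percentile over probes well above background on all arrays, because under 50% of the gene spots were on replicates 1 and 4. Scaled values keep the mean intensity of the 4 arrays. A probe was detected when over 50% of its spots had the flag, a gene when any probe was, and list genes show their brightest probe. Accessions without versions were named through the RefSeq table of GRCr8, for 21109 of 45598 probes. No group could be compared, so no test of a difference was run. The 1 check of spread was Dixon's gap rule for a single array far from the other 3. All measured members, fixed examples of the other iron genes and all those dim on replicates 1 and 4 are named, and Zc3h12a, Pcbp4, Slc39a8 and Lcn2 were added after their values were seen. Of the iron gene list, 1 gene is not reported here and is left out of its counts. The members and lists were chosen with earlier results of these data known. Scaling was tested on simulated data. Python 3.11.15 and limma 3.58.1 (normexp with an offset of 50, quantile normalization) were used.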

Additional observations from a re-analysis of the deposited data

Results flagged for a closer look

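For 2 of 21 sets of 4 scaled values, 1 array lay far from the other 3, measured as its gap to the nearest array over the whole range. Chance flags about 5% of such sets. For the Slc11a2 probe A_64_P102433, replicate 3 was low at 7.92 beside 8.28 to 8.34, with a gap of 0.838 of the range. The other Slc11a2 probe, lowest on the same array, was not marked. For Rbx1, replicate 2 was low at 11.75, with a gap of 0.853. Bright probes tended to read lower on replicate 2 than on replicate 1. Among probes between 2393 and 6890 on replicate 1, the median of replicate 1 minus replicate 2 was 0.55. Rbx1 gave 7215 on replicate 1, above that range, and the part of this tendency in its value was not tested.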

How the results depend on the processing

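The count of genes well above background on all 4 arrays was between 4 and 7 of 8 under the alternatives tried, the 4 arising when a signal had to exceed the dimmest spike-in by 3 SD of its spots, which 18.9% of all genes did, and the 7 under the looser flag, which 59.8% of all genes had. It was 5 without any 1 replicate. On replicates 1 and 4 the count was 6 or 7, and the spike-in threshold was passed there by 6, beside 52.3% of all genes. For the 33 other iron genes on those arrays it was 18 to 26, the 18 arising when all probes of a gene had to be flagged. The 26 came under the looser flag, beside 61% of all genes, and the spike-in threshold gave 23, beside 52.3%. The median SD of the 7 probes was 0.29 log2 units. It became 1.81 with scaling on all probes, 0.64 with no scaling, 0.65 with the 3 brightest spike-ins and 0.83 with quantile normalization. Leaving out each replicate gave 0.18 to 0.35, the lowest without replicate 3. Of the 11 mean levels, 3 moved by over 1 SD under quantile normalization and 4 under normexp, and the cause was not tested. The count was 0 under the other settings. For the other shifts between arrays and for leaving out replicates, this 0 was fixed in advance. Those shifts keep the mean level, and leaving out arrays in this way cannot move it by over 1 SD. A rising curve could not be drawn through all 10 spike-ins, so it was limited to 4, a change made after seeing the data, and it gave a value on all arrays for Aco1 alone. The shared floor of replicates 2 and 3 limits what can be said of Slc40a1, Ireb2 and Steap3.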

Other observations

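Lcn2, which encodes lipocalin 2, a protein that binds iron-carrying siderophores, gave 9918, 7223, 1965 and 7202 on replicates 1 to 4 and was well above background on each. Replicate 3 was its lowest array, as it was for Tfrc. On the scale used for Tfrc, Lcn2 had a mean of 12.46 ± 0.77 (SD, n = 4). The gene was picked out after its values were seen, and 4 arrays of 1 condition give no test of whether it and Tfrc vary together.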
